A study of Mus musculus with 13 samples.

Results

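The arrays compared here are 8 of the 13 arrays of the series, chosen by their titles: S1 embryonic stem (ES) cells that received 10 µM PD169316 and S1 cells that received no compound, all taken on day 3 after leukaemia inhibitory factor (LIF) was withdrawn. On each of the chip versions U74A and U74Av2 there were 2 control and 2 PD169316 arrays. S1 is a mouse ES line that grows without feeder cells. Per the labels, all cells had been kept in 500 pM LIF, were diluted to 10000 per ml when it was withdrawn, and gave RNA from their adherent fraction. Of this RNA, 5 µg was used for labelling and 10 µg of labelled cRNA was hybridized per array. The groups therefore share line, density, time and LIF withdrawal, and differ in the compound. Whether replicates were separate cultures is not in the labels, so each p-value measures the spread between these arrays, which may be technical.

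LIF keeps mouse ES cells undifferentiated through STAT3, and cells deprived of it leave that state over days. PD169316 is a pyridinyl imidazole that blocks the ATP site of the p38 alpha and beta mitogen-activated protein kinases, which relay stress and cytokine signals to downstream kinases and transcription factors. Compounds of this class can also inhibit other kinases. The comparison asked which transcripts differ when the compound is present while the cells leave self-renewal.

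The cells carried ES markers in both groups. Pou5f1, which encodes the pluripotency factor OCT4, had signals from 6288.2 to 9165.4 in control and from 3450.4 to 6599.3 with PD169316, and Nanog, measured on U74Av2, lay at 2414.5 to 2888.3 and at 2052.0 to 2597.7. The signals of the 9 undifferentiated ES cell markers with a value on U74A summed to 15754 and 21105 in control and to 10357 and 13110 with PD169316. On U74Av2 the sums over 11 markers were 37591 and 38850 in control and 25193 and 28250 with PD169316. The sums did not overlap on either version, but not all members were lower. Sox2, another core pluripotency factor, had overlapping groups on both versions (2466.1 to 4015.3 in control, 2229.9 to 3449.1 with PD169316), and so had Zfp42 (514.9 to 1113.3 against 437.7 to 991.8). Of 28 tested pluripotency and germ cell genes 15 were above 0 (11 with all arrays rescaled to the same median). Of the 28, 1 rose and 4 fell, against 1.49% and 0.528% of all genes. The list median was 0.04, and -0.0025 without control replicate 1 of both versions. The sums of 11 fibroblast markers, which would show feeder cells, overlapped between the groups (1210 to 2165 with PD169316 against 1482 to 2367 in control on U74A). In bulk RNA, fewer cells of a type and less RNA per cell cannot be told apart.

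Median signals per array lay between 89.4 and 131.7, and a share of 21.8% to 29.8% of each array's listed signals did not exceed the floor of 32. Replicate 1 of both groups and of both versions was hybridized on one shared day, and each pair of replicate 2 arrays on a day of its own. The 2 controls of the shared day had an Actb 3' to 5' signal ratio of 3.31 and 3.21, against 1.67 to 2.25 on the other 6 arrays, a measure that rises as RNA is degraded or labelled incompletely. The part of this difference in the results was not tested. Effects are given also by pair of same-numbered arrays. The number of arrays limits the precision.

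A small share of the transcripts passed the test of PD169316 against control, more of them higher than lower. A transcript that did not pass is not shown to be unchanged. Across the versions, limma called 101 of 5369 tested probe sets at an adjusted p of 0.05 (1.88%), 74 higher (1.38%) and 27 lower (0.503%). With 1 probe set per gene, the brightest, 88 of 4360 genes passed (2.02%), 65 of them higher (1.49%) and 23 lower (0.528%). These genes are said below to have risen or fallen. The median log2 fold change of all genes was 0.03, and 52.6% of them were above 0. U74A alone gave 1 call of 5681 (0.0176%) and U74Av2 alone 9 of 7050 (0.128%). With the replicate number as a block, which compares arrays hybridized on the same day, 199 of 5278 probe sets passed (3.77%), among them all 101. With the observed correlation of the z scores of the versions (0.43) allowed for, 12 passed (0.224%), all higher. That correlation was taken over all 5369 probe sets, so it includes effects seen on both versions as well as shared noise. Taking 1 ratio per hybridization day left 7 (0.13%).

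**Figure D1:**
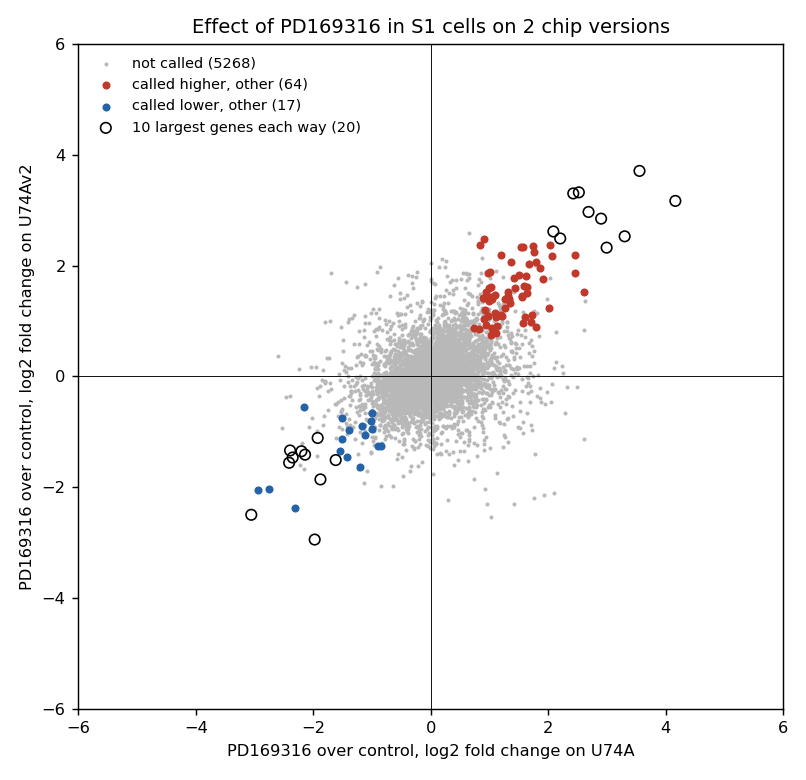
Log2 fold change of PD169316 over control in S1 cells for 5369 probe sets, on U74A (horizontal axis) and on U74Av2 (vertical axis). Grey points were not called, filled points were called in the combined test, and open circles are the probe sets of the 10 largest genes each way. The called probe sets lie in the 2 quadrants where both versions have the same sign.

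The size of the effects differed between pairs of arrays. Over the 101 called probe sets, the median ratio in the called direction was 1.91 on the log2 scale in the replicate 1 pair of U74A and 1.89 in that of U74Av2, which share the hybridization day. It was 0.98 in the replicate 2 pair of U74A and 1.07 in that of U74Av2. The largest of the 4 ratios fell in a shared-day pair for 52 and 37 probe sets, and the smallest in a replicate 2 pair for 54 and 40. The called direction was seen in all 4 pairs for 97 of the 101, which is no separate check, since the same arrays gave the calls. For comparison, 23.2% of all tested probe sets went one way in all 4 pairs, 675 of them higher and 570 lower, and 1148 of these were not called. Control and PD169316 arrays did not overlap on either version, in the same direction, for 624 probe sets (11.6%).

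Leaving out single arrays moved the count of 101 both ways. It was 31 without PD169316 replicate 1 of U74A, 24 without that of U74Av2, 48 and 64 without control replicate 1 and 2 of U74Av2, 164 without control replicate 2 of U74A, and 159 without PD169316 replicate 2 of U74Av2. Without control replicate 1 of both versions, the 2 arrays with the high Actb ratio, it was 30, of which 25 were among the 101, and 23 of the 88 called genes passed. Standard errors of the combined effects treat the versions as independent and are likely too small.

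Most called genes lie below the 10 largest rises and falls. There were 68 of these, 55 higher and 13 lower, and 65 of the 68 had the called direction in all 4 pairs. The median log2 ratios of the 55 rises were 1.80 (replicate 1) and 0.86 (replicate 2) on U74A, then 1.76 and 1.04 on U74Av2. Those of the 13 falls were -1.45 and -0.93, then -1.33 and -0.55. All 68 passed with the replicate block. Of them, 4 passed with the correlation of the versions allowed for, namely Tmsb4x, Wfdc2, Id2 and Actn1, and Tmsb4x passed with 1 ratio per day.

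**Figure D2:**
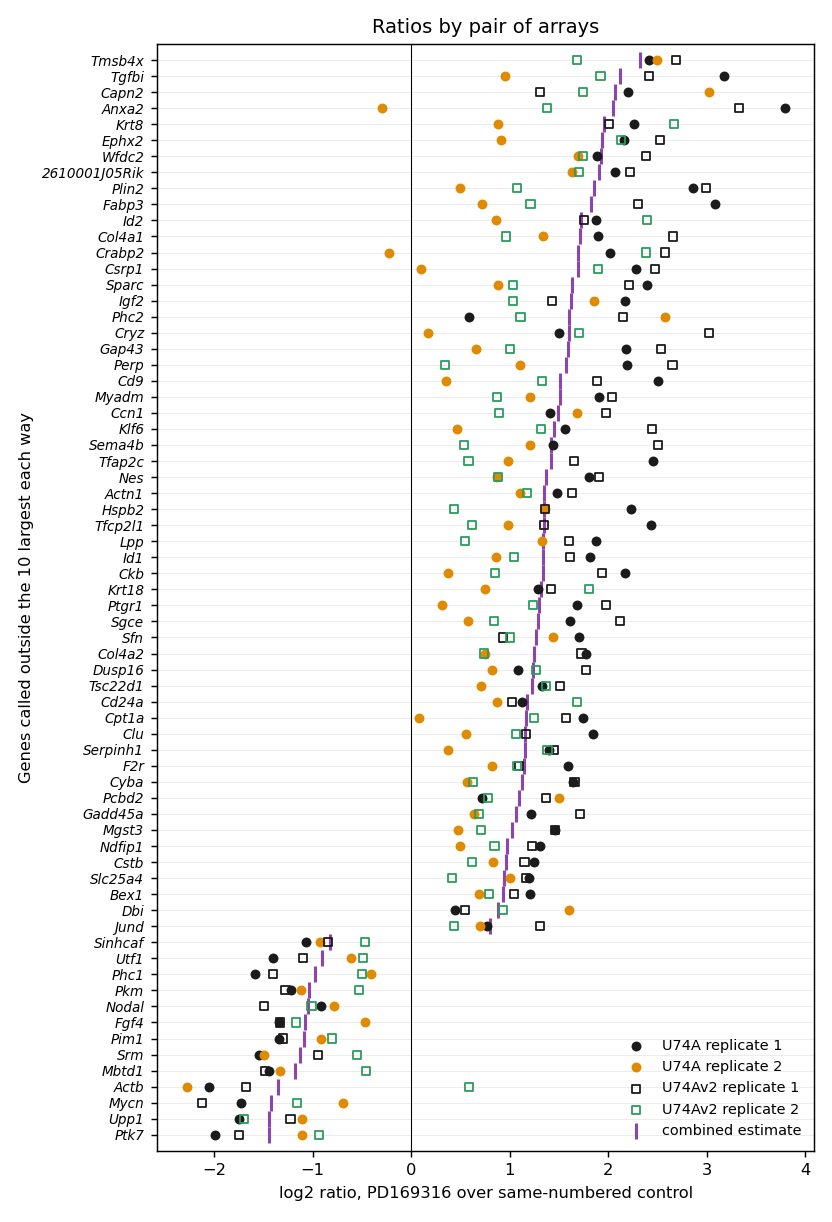
Log2 ratio of PD169316 over the same-numbered control for the 68 called genes outside the 10 largest each way, ordered by the combined log2 fold change (purple bars). Black symbols are the replicate 1 pairs of the shared hybridization day, which lie farther from 0 than the replicate 2 pairs (orange and green) for most genes.

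Genes of the actin cytoskeleton and cell attachment made up the first group of rises. Tmsb4x encodes thymosin beta 4, which binds actin monomers. Its signals were 523.7 and 309.9 in control and 2780.2 and 1751.8 with PD169316 on U74A, and 536.1 and 438.4 against 3443.5 and 1408.6 on U74Av2, replicate 1 first here and below. The groups were apart on both versions, and all 4 pair ratios were above 1.6. The log2 fold change was 2.32 ± 0.30 (SE, n = 2 against 2 on each version, adjusted p = 0.000214 by limma).

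Actn1, the gene of the actin cross-linker alpha-actinin 1, had signals of 962.3 and 1082.0 against 2684.5 and 2329.2 on U74A and of 962.5 and 1121.2 against 2990.0 and 2523.9 on U74Av2. Its replicates lay closer together than those of Tmsb4x, with pair ratios from 1.11 to 1.64, and it rose by 1.35 ± 0.20 (adjusted p = 0.00073). Other probe sets of Actn1 stood at 1.33 and 0.51 and were not called. Capn2, the large subunit of the calcium-activated protease calpain 2, had 97.7 and 53.9 against 448.9 and 437.7 on U74A and 159.9 and 89.5 against 395.2 and 300.1 on U74Av2, without overlap (2.07 ± 0.33, adjusted p = 0.00232). The LIM-domain genes Csrp1 (1.69 ± 0.32) and Lpp (1.34 ± 0.29), the latter of focal adhesions, and the membrane protein gene Myadm (1.5 ± 0.24) also rose.

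Anxa2, which encodes a membrane-binding annexin, was uneven. Its U74A signals were 90.0 and 1422.4 in control and 1243.6 and 1161.2 with PD169316, and its U74Av2 signals 115.9 and 209.5 against 1159.3 and 543.6. The U74A groups overlapped because control replicate 2 was bright, and the ratio of that pair was -0.29. The combined value of 2.05 ± 0.56 passed (adjusted p = 0.0207). Of the 12 annexin, S100 and galectin genes, 5 rose, against 1.49% of all genes, with a median of 0.94. Without control replicate 1 of both versions the median of the 11 tested genes was 1.06.

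Some genes of the extracellular matrix and of epithelial cells rose. Of 25 tested integrin, laminin and collagen genes 4 rose, against 1.49% of all genes, and of 29 junction and surface adhesion genes 2 did. The list medians were 0.37 and 0.18, and they were 0.32 and 0.25 without control replicate 1 of both versions. Tgfbi, a secreted matrix protein gene induced by TGF-beta in many cells, had signals of 47.4 and 91.5 against 428.3 and 176.4 on U74A and of 83.3 and 57.2 against 443.9 and 216.6 on U74Av2. Both controls of each version were dim, the groups were apart, and the fold change was 2.11 ± 0.46 (adjusted p = 0.0158). The collagen IV chains Col4a1 (1.71 ± 0.29) and Col4a2 (1.25 ± 0.29), the matrix protein Sparc (1.63 ± 0.29) and the collagen chaperone Serpinh1 (1.15 ± 0.26) rose together. In RefSeq (GRCm38.p6), Col4a1 and Col4a2 start 21 bases apart on chromosome 8 and run in opposite directions.

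Krt8 and Krt18, which pair to form the keratin filaments of simple epithelia, start 23.9 kb apart on chromosome 15. Krt8 signals were 248.1 and 827.3 against 1192.6 and 1520.1 on U74A and 305.0 and 134.0 against 1226.2 and 848.4 on U74Av2, with no overlap (1.95 ± 0.34, adjusted p = 0.00232). Krt18 rose by 1.31 ± 0.30, but its U74A groups overlapped, since control replicate 2 read 702.7 and PD169316 replicate 1 read 685.3. The tetraspanin Cd9 (1.51 ± 0.32), the semaphorin Sema4b (1.42 ± 0.35) and the surface glycoprotein Cd24a (1.18 ± 0.22) followed.

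Endoderm and trophoblast genes were looked at beside these rises. Of 11 tested endoderm genes 3 rose, against 1.49% of all genes, and the median was 0.81. Without control replicate 1 of both versions 0 of them passed the limma test (30 probe sets did in all, and 403 had an unadjusted p under 0.05), and the median was 0.32. Of 13 trophoblast genes 4 rose, and 1 without those arrays, with a median of 0.94. The 12 endoderm markers summed to 3126 and 3978 with PD169316 against 1261 and 2818 in control on U74A, and to 2802 and 4750 against 2000 and 2301 on U74Av2. Within that sum, the matrix genes Sparc and Col4a1 described above were brightest with PD169316. Sox17 (18.9 to 171.6 in control, 20 to 79.7 with PD169316), Gata6 (13.4 to 123.8 and 14.0 to 65.8) and Foxa2 (27.5 to 200.5 and 14.1 to 38.2) were dim in both groups, while Gata4 ran from 25.3 to 316.4 in control and from 34.4 to 346.4 with PD169316. Its groups overlapped on U74A, and its U74Av2 signals were lower with PD169316 (86.3 and 147.4 against 316.4 and 165.9). The 8 trophoblast markers summed to 2372 to 3820 with PD169316 and to 904 to 2164 in control, without overlap on either version. Within this sum, the keratins Krt8 and Krt18 described above and Tfap2c were brightest with PD169316. Tfap2c, a factor of that list, rose (703.4 to 1009.4 with PD169316 against 140.3 to 475.2 in control), Hand1 overlapped (79.1 to 204.8 against 106.6 to 273.5), and Cdx2, Eomes and Elf5 did not exceed 156.0 on any array. None of these markers was at 0. The endoderm sum holds matrix genes and the trophoblast sum keratins described above, so neither sum is separate from those rises. The part of endoderm or trophoblast cells in the matrix and keratin rises was not tested.

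Transcription regulators rose as well. Id2 encodes an inhibitor of basic helix-loop-helix factors and is a target of BMP signalling. Its signals were 504.0 and 821.2 against 1849.7 and 1492.4 on U74A and 598.7 and 287.0 against 2021.0 and 1505.7 on U74Av2. Every PD169316 array exceeded every control array of its version, and Id2 rose by 1.72 ± 0.26 (adjusted p = 0.0014). Its relative Id1 rose by 1.33 ± 0.26, the zinc finger factor Klf6 by 1.45 ± 0.31 and the AP-2 factor Tfap2c by 1.42 ± 0.31.

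The AP-1 component Jund had the smallest of the 65 rises, at 0.80 ± 0.19 (adjusted p = 0.0317). Its signals were 6034.2 and 6793.5 against 10266.2 and 10989.2 on U74A, and 5578.5 and 5884.2 against 13782.7 and 7963.6 on U74Av2. The 4 control arrays lay within a narrow range, below all PD169316 arrays. Tsc22d1, a leucine zipper protein gene, rose by 1.23 ± 0.24. Tfcp2l1, a factor of the naive ES cell network, rose by 1.34 ± 0.30 on 1 probe set, while another stood at -0.10. Of the Polycomb genes, Phc2 rose (1.60 ± 0.43) and its relative Phc1 fell (-0.98 ± 0.22, adjusted p = 0.0216). Phc1 signals were 2969.5 and 1864.0 against 992.1 and 1400.7 on U74A, and 4436.0 and 3805.3 against 1672.5 and 2682.5 on U74Av2.

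Some rises were those of further secreted factors and receptors. Wfdc2, which encodes a small secreted protein with whey acidic protein domains, had signals of 141.4 and 262.8 against 522.1 and 850.8 on U74A and of 109.3 and 179.7 against 570.8 and 601.5 on U74Av2. It rose evenly, with pair ratios from 1.69 to 2.38 (1.93 ± 0.30, adjusted p = 0.00115). The imprinted growth factor Igf2 rose by 1.62 ± 0.28, the matricellular protein Ccn1 by 1.49 ± 0.38 and the thrombin receptor F2r by 1.14 ± 0.26. Another F2r probe set stood at 0.55 and was not called.

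Lipid handling formed a further group. Of 18 tested genes for fatty acid oxidation, lipid droplets and PPAR signalling, 5 rose (Plin2, Fabp3, Ephx2, Cpt1a and Dbi), against 1.49% of all genes, 14 were above 0 and the median was 0.31. The count of 5 became 3 with all arrays rescaled to the same median. Without control replicate 1 of both versions, the arrays with the high Actb ratio, the median was 0.24 and 13 of the 18 were above 0. Plin2, the coat protein of lipid droplets, had signals of 138.8 and 561.2 against 1004.2 and 793.3 on U74A and of 104.6 and 297.7 against 833.9 and 628.2 on U74Av2. The controls of the shared day were the dimmest arrays on each version, and the pair ratios were 2.85, 0.50, 3.00 and 1.08 (1.86 ± 0.38, adjusted p = 0.00887).

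Fabp3, a cytosolic fatty acid carrier, showed the same spread, with 105.2 and 436.1 against 894.0 and 717.5 on U74A and 137.6 and 176.5 against 678.1 and 408.4 on U74Av2 (1.83 ± 0.41, adjusted p = 0.0194). Ephx2, the soluble epoxide hydrolase, was more even, at 112.8 and 209.1 against 505.0 and 392.9 on U74A and 99.9 and 139.7 against 576.6 and 612.7 on U74Av2 (1.93 ± 0.32, adjusted p = 0.00202). Cpt1a, which commits fatty acids to mitochondrial import, rose by 1.16 ± 0.30, but by 0.08 in the replicate 2 pair of U74A. Dbi, the acyl-CoA-binding protein, rose by 0.88 ± 0.22. Among other metabolic genes, the quinone reductase Cryz (1.60 ± 0.37), the brain-type creatine kinase Ckb (1.33 ± 0.29), the prostaglandin reductase Ptgr1 (1.30 ± 0.28), the microsomal glutathione transferase Mgst3 (1.03 ± 0.26) and the ADP/ATP carrier Slc25a4 (0.95 ± 0.19) rose.

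Genes linked to neural cells and to the p53 response gave smaller groups. Of 20 epiblast and neural genes 3 rose, against 1.49% of all genes, the retinoic acid-binding protein Crabp2 (1.69 ± 0.38), the growth cone protein Gap43 (1.59 ± 0.36) and the filament protein nestin, Nes (1.37 ± 0.28), while the list median was -0.06. Without control replicate 1 of both versions the list median was 0.02. In the replicate 2 pair of U74A the ratio of Crabp2 was -0.22. Of 21 BCL2 family and p53 response genes 4 rose, against 1.49% of all genes, and the median was 0.22: the desmosome-associated p53 target Perp (1.57 ± 0.34), the 14-3-3 protein gene Sfn (1.27 ± 0.28), the chaperone clusterin, Clu (1.16 ± 0.30), and Gadd45a (1.06 ± 0.27), a growth arrest and DNA damage gene. With equal medians 2 of the 21 passed. Without control replicate 1 of both versions the median of the 21 was 0.27, with 17 of them above 0 (15 with all arrays). The 20 rises ranked after the first 45 ranged from 0.80 to 1.28, with adjusted p from 0.00501 to 0.0479.

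Falls outside the 10 largest were led by signalling and growth genes. Ptk7, a pseudokinase receptor of planar cell polarity, had signals of 717.7 and 438.0 against 181.0 and 202.7 on U74A and of 642.1 and 538.5 against 190.6 and 281.3 on U74Av2. The groups were apart on both versions, and the log2 fold change of Ptk7 was -1.45 ± 0.31 (adjusted p = 0.0158). Mycn, the N-MYC gene, was uneven between replicates, at 1320.2 and 448.6 against 398.3 and 277.0 on U74A and 1325.8 and 1781.8 against 303.7 and 799.2 on U74Av2, but lower in each pair (-1.43 ± 0.35, adjusted p = 0.0341). The kinase gene Pim1, a STAT3 target, changed by -1.09 ± 0.21. Another Pim1 probe set stood at -0.86 and was not called.

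Fgf4, the growth factor that ES cells use to leave self-renewal, had signals of 2729.5 and 1559.4 against 1077.7 and 1129.0 on U74A and of 2771.0 and 2986.9 against 1102.6 and 1323.8 on U74Av2. The PD169316 arrays lay close together, below all controls (-1.08 ± 0.23, adjusted p = 0.0148). Nodal, the ligand that maintains the epiblast, read 651.3 and 656.5 against 344.7 and 380.7 on U74A and 816.9 and 646.6 against 290.8 and 320.5 on U74Av2 (-1.05 ± 0.24, adjusted p = 0.0222). The pluripotency-associated chromatin gene Utf1 (-0.90 ± 0.22) and Sinhcaf, a subunit of the SIN3 histone deacetylase complex (-0.83 ± 0.19), fell too, as did the malignant brain tumour-domain gene Mbtd1 (-1.18 ± 0.25). Another Mbtd1 probe set stood at -0.50 and was not called.

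Enzyme genes were also among the falls. Srm, spermidine synthase, had signals of 2995.8 and 2404.8 against 1029.3 and 854.0 on U74A and of 2855.2 and 3361.6 against 1483.2 and 2294.8 on U74Av2, lower on every PD169316 array (-1.13 ± 0.20, adjusted p = 0.00799). Upp1, uridine phosphorylase, read 1057.1 and 2194.1 against 314.8 and 1015.7 on U74A and 1090.1 and 2410.6 against 466.2 and 744.2 on U74Av2. Its control replicates differed by about 2-fold, while its 4 pair ratios stayed between -1.75 and -1.11 (-1.45 ± 0.36, adjusted p = 0.0323). Pkm, pyruvate kinase, was the brightest fall, at 22295.1 and 29658.9 against 9600.0 and 13634.9 on U74A and 22054.3 and 26573.8 against 9105.3 and 18411.7 on U74Av2 (-1.04 ± 0.21, adjusted p = 0.0154).

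A fall of a probe set of Actb, which encodes cytoplasmic beta-actin, did not hold in all pairs. Its signals were 2286.6 and 2581.1 against 552.7 and 532.0 on U74A and 3356.0 and 865.1 against 1052.3 and 1295.3 on U74Av2, so the U74Av2 groups overlapped and the replicate 2 ratio there was 0.58 (-1.35 ± 0.30, adjusted p = 0.0317). Another Actb probe set stood at -0.66 and was not called. The Actb 3' control probe set, which was left out of the fit, was higher with PD169316 in each of the 4 pairs, at 7143.6 and 22046.9 against 11715.3 and 23845.3 on U74A and 7099.3 and 6083.6 against 11623.7 and 6662.8 on U74Av2.

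**Figure D3:**
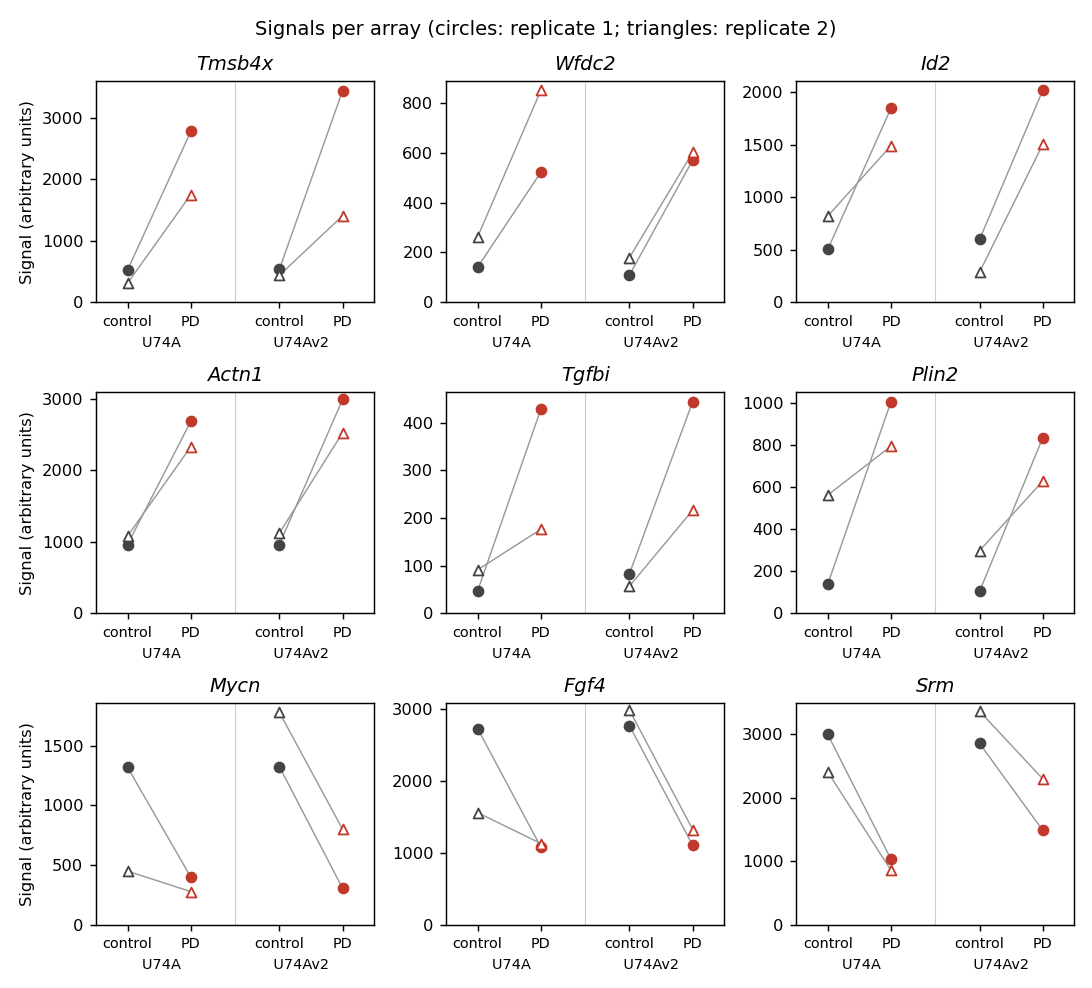
Signals (arbitrary units, linear scale from 0) of 9 genes on the 8 arrays, with control in grey and PD169316 (PD) in red; circles are replicate 1, triangles replicate 2, and lines join same-numbered arrays of a version. In each panel the PD169316 arrays of a version lie all above its controls (Tmsb4x, Wfdc2, Id2, Actn1, Tgfbi, Plin2) or all below them (Mycn, Fgf4, Srm).

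Sets of genes with few or no single calls moved by small amounts. Ribosome biogenesis genes were mostly lower, with 24 of 27 below 0 and a median of -0.34, beside 0.03 for all genes. Among the 27, 1 fell (against 0.528% of all genes), the small-subunit processome gene Utp14a (-1.52 ± 0.28). With the replicate block 2 genes did, against 64 of 4300 genes in all. Without control replicate 1 of both versions the list median was -0.26. Gar1, a small nucleolar RNA-binding protein gene, stood at -0.76 ± 0.23 and was lower in 4 of 4 pairs, but did not pass (adjusted p = 0.128) unless the block was used (adjusted p = 0.0376). By pair, the list median was -0.65, then 0.02 on U74A, and -0.54, then -0.19 on U74Av2, so the replicate 2 pair of U74A was flat.

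Translation factors and aminoacyl-tRNA synthetases had 27 of 33 genes below 0 and a median of -0.26, with no call by limma. Of the 33, 11 were lower in all 4 pairs and none higher, against 10.8% and 12.8% of all genes. DNA replication genes had 31 of 38 below 0 and a median of -0.13 (-0.26 without control replicate 1 of both versions and -0.21 with equal medians), also without a call. With the block, 2 of these fell (against 64 of 4300 genes in all), the single-strand binding subunit Rpa2 (-1.23 ± 0.40) and the helicase subunit Mcm5 (-0.63 ± 0.20). Mcm5 signals were 8488.2 and 4826.9 against 4129.1 and 3560.7 on U74A, and 5896.9 and 5225.8 against 3993.4 and 3798.7 on U74Av2. In nucleotide synthesis, where 13 of 19 genes were below 0, the purine synthesis gene Gart stood at -0.79 ± 0.21 (adjusted p = 0.0548, and 0.02 with the block).

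Glycolysis genes had 16 of 21 members below 0 and a median of -0.21 (-0.38 without control replicate 1 of both versions). Of the 21, 3 fell, against 0.528% of all genes. The falls were those of Pkm, the phosphofructokinase Pfkl (-1.78 ± 0.31) and the lactate dehydrogenase Ldha (-1.56 ± 0.32). With the block 5 fell, the triose phosphate isomerase gene Tpi1 among them, against 64 of 4300 genes in all. Tpi1 had 4030.0 and 9669.6 against 1623.6 and 4552.8 on U74A and 4679.3 and 5982.4 against 1669.9 and 4209.0 on U74Av2. Replicates differed by 2-fold or more on U74A, so the groups overlapped there, yet each pair was lower (-1.10 ± 0.33, adjusted p = 0.0939, and 0.00094 with the block).

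Lists above the median of all genes included lysosomal genes and proteases. Of 24 lysosome and cathepsin genes 21 were above 0, against 52.6% of all genes, with a median of 0.44. Among the 24, 1 rose, against 1.49% of all genes, the cathepsin inhibitor cystatin B (Cstb, 0.96 ± 0.21). The list median was 0.16 without control replicate 1 of both versions. By pair it was 0.80, then -0.23 on U74A, and 0.51, then 0.37 on U74Av2. Cathepsin L, Ctsl, stood at 0.84 ± 0.27 and passed with the block (adjusted p = 0.036) but not without it (adjusted p = 0.121).

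All 12 protease and inhibitor genes were above 0 (median 0.53), against 52.6% of all genes, and 1 of them rose (Wfdc2), against 1.49% of all genes. Without control replicate 1 of both versions 11 of the 12 were above 0 (median 0.32). The median of 14 genes of endoplasmic reticulum and integrated stress was 0.44, with no call by limma. The largest values were those of the stress factors Ddit3 (1.24 ± 0.45), Atf3 (1.09 ± 0.33) and Atf5 (1.0 ± 0.36), and none of the 3 passed with the block either. Of 20 imprinted genes 15 were above 0 and 2 rose (against 1.49% of all genes), Igf2 and the sarcoglycan gene Sgce (1.28 ± 0.30), with a median of 0.46. Without control replicate 1 of both versions the median was 0.27.

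**Figure D4:**
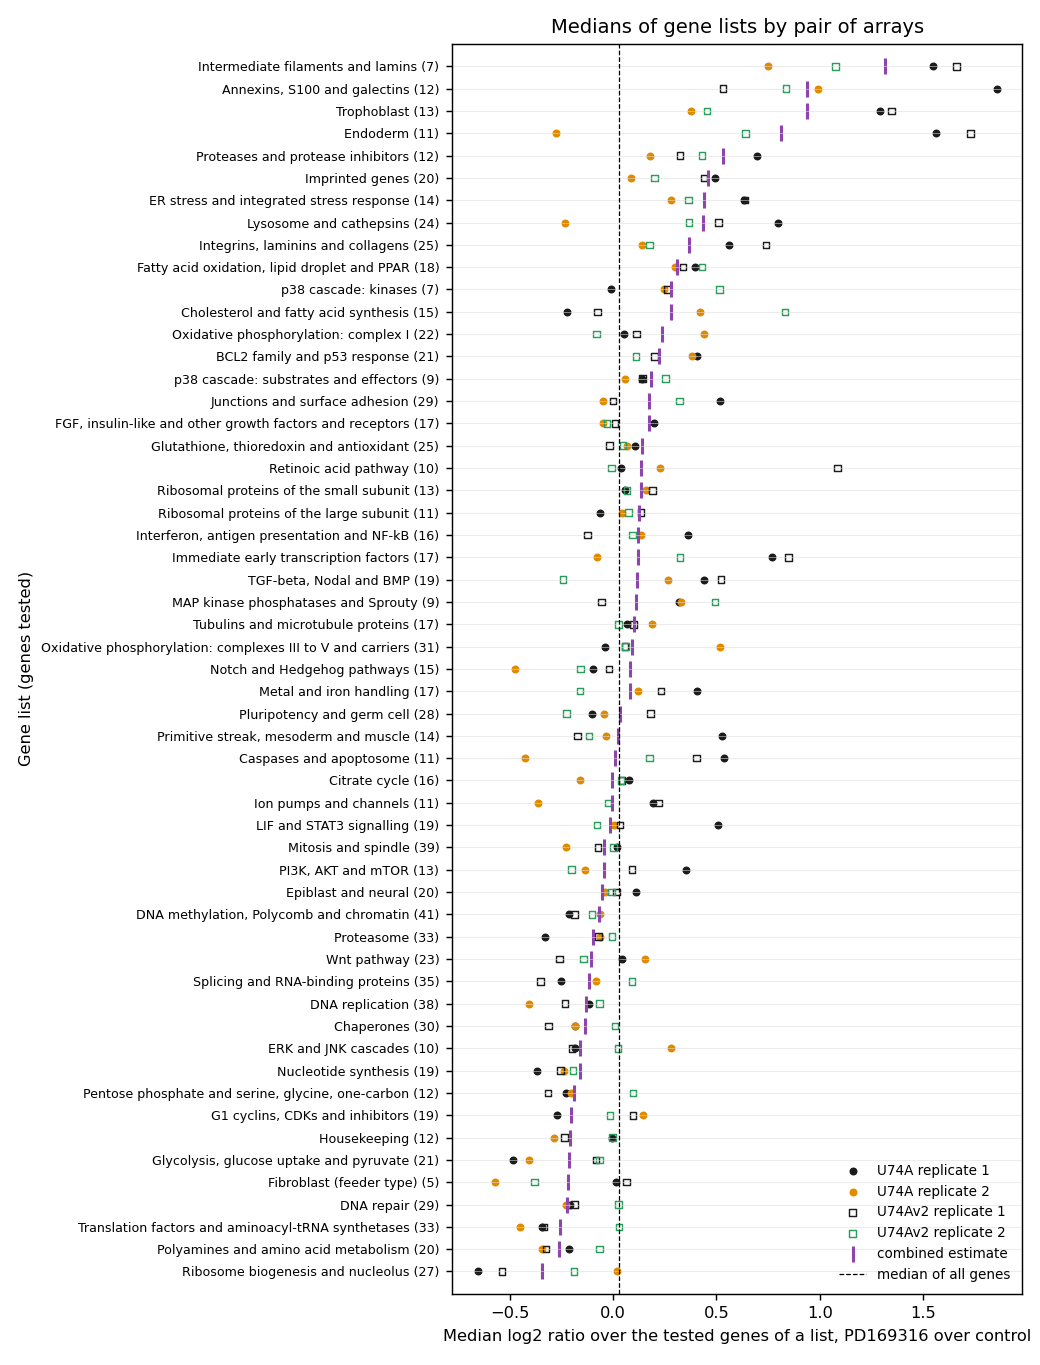
Median log2 ratio of PD169316 over control over the tested genes of 55 lists (number tested in parentheses), by pair of arrays (points) and for the combined estimate (purple bars). The dashed line is the median of all genes at 0.03. Filament, annexin, trophoblast and endoderm lists lie farthest to the right and ribosome biogenesis farthest to the left, and the 4 pairs of the endoderm list run from -0.27 to 1.73.

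No tested kinase or substrate of the targeted cascade passed. Mapk14, which encodes p38 alpha, had signals of 928.5 and 571.5 against 1113.2 and 678.4 on U74A and of 1063.6 and 1056.8 against 1103.0 and 1211.0 on U74Av2. None of 7 tested kinases of the p38 cascade passed, with or without the block; 6 were above 0 and the median was 0.28. The upstream kinase gene Map2k6 had the highest value (1.63 ± 0.58, adjusted p = 0.26), but its signals did not exceed 283.0. None of 9 substrates and effectors passed either by limma (median 0.18, and 0.0081 without control replicate 1 of both versions). Of the 7 kinases 1 could be bounded within 2-fold on both versions, and of the 9 substrates 0, so a miss does not show that these transcripts did not change.

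Among 9 MAP kinase phosphatase and Sprouty genes, Dusp16, which encodes a phosphatase acting on JNK and p38, rose by 1.23 ± 0.28 (adjusted p = 0.0194). Its signals were 185.8 and 172.7 against 392.7 and 304.1 on U74A and 152.0 and 158.1 against 520.8 and 379.2 on U74Av2. Dusp9, a phosphatase of ERK, passed with the block alone (1.08 ± 0.34, adjusted p = 0.115, and 0.0043 with the block). It read 1047.0 and 644.5 against 3006.3 and 884.7 on U74A and 1014.3 and 718.7 against 2994.8 and 1234.1 on U74Av2, so that the U74A groups overlapped. The log2 ratios of the replicate 1 pairs were 1.52 and 1.56, and those of the replicate 2 pairs 0.46 and 0.78. The block counts the replicate 1 pairs, which share a day, as separate. With 1 ratio per day Dusp9 did not pass (adjusted p = 0.276), and neither did the other genes named here as passing with the block alone (Gart, Mcm5, Rpa2, Gar1, Tpi1, Ctsl and Rps19, adjusted p from 0.149 for Tpi1 to 0.534 for Ctsl).

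Promoter letters were read for the called genes from RefSeq (GRCm38.p6), 250 bases before each start, on both strands. The letters CTTTGNNC, where N is any base, are a loose form of the motif that LEF1 and TCF proteins bind. They were of interest because Lef1 is among the largest falls. This loose form occurred for 17 of 49 risen genes with a promoter in the table (34.7%) and 5 of 17 fallen genes (29.4%). Its share was 17.8% of the tested genes and 16.9% of all genes in the table. Counted per start, the shares were 31.3% and 18.5% of the called starts, and 15.1% of the tested ones. The AP-1 letters TGANTCA, which FOS and JUN dimers bind, were found for 4 risen genes (8.16%) and 1 fallen gene (5.88%), beside 5.67% of tested genes. The MYC and MAX site CACGTG was present for 5 risen (10.2%) and 4 fallen genes (23.5%), beside 11.6%. The CArG box of SRF was found for 3 risen (6.12%) and 2 fallen genes (11.8%), beside 1.4%. In all 6 motifs were read. The metal response element core TGCNCNC was found for 59.2% of risen and 70.6% of fallen genes, beside 57.2%. The cAMP response element TGACGTCA was found for 0 risen genes and 1 fallen gene (5.88%), beside 2.92%.

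Windows show where the LEF1 and TCF letters and the AP-1 letters lie for some of the genes described above. The motif is in capitals, with up to 40 bases each side, 5′ to 3′ along the gene. The motif CTTTGNNC, or its reverse complement, occurs before the risen genes Tmsb4x (chrX:167209281-167209368, minus strand) and Krt18 (chr15:102027973-102028060, plus strand) and the fallen genes Nodal (chr10:61417722-61417777, plus strand) and Phc1 (chr6:122340342-122340429, minus strand). The AP-1 letters occur before the risen genes Capn2 (chr1:182517747-182517833, minus strand) and Anxa2 (chr9:69453548-69453634, plus strand). Other called genes hold these motifs too, among them the risen F2r and the fallen Upp1 for AP-1. A match describes the letters and says nothing of binding, and the shares were not tested.
Tmsb4x: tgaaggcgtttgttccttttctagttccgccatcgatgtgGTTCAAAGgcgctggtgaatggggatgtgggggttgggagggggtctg
Krt18: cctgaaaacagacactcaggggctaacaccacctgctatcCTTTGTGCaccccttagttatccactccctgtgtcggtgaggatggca
Nodal: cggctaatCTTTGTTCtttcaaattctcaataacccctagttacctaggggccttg
Phc1: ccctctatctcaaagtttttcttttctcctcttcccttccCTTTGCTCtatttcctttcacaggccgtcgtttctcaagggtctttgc
Capn2: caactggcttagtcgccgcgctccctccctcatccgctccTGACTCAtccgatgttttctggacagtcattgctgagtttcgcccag
Anxa2: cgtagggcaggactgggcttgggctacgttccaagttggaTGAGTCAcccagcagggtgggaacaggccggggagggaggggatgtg

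Genes whose change could be bounded were the bright ones. For 461 of 4360 genes (10.6%) the 95% confidence interval lay within 2-fold either way on each version. The brightest of these were ribosomal protein genes (Rpl41, Rps28, Rplp0, Rps18, Rps24, Rpl19, Rpl8, Rps3, Rps3a1, Rpl7 and Rps10), the elongation factor Eef1a1, the translationally controlled tumour protein Tpt1, the alpha-tubulin Tuba1c and the nuclear transport GTPase Ran. Rpl41 read 46705.9 and 51218.2 against 43029.6 and 56149.5 on U74A, and 46044.1 and 40898.0 against 52805.1 and 43077.6 on U74Av2. Its groups overlapped on both versions, and its intervals ran from -0.63 to 0.65 on U74A and from -0.24 to 0.52 on U74Av2. No gene was bounded within 1.5-fold on both versions. Among ribosomal protein genes of the small subunit, Rps19 stood at 0.67 ± 0.20, passing with the block (adjusted p = 0.018) but not without it (adjusted p = 0.196).

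Precision followed brightness. The median distance from the estimate to either end of its interval on U74A fell from 1.56 log2 units below a mean signal of 200 to 0.68 at 3000 and above, and on U74Av2 from 1.18 to 0.48. The share called rose from 0.676% (11 of 1627) below 200 to 3.81% (26 of 682) between 1000 and 3000. Sorted by size, 10 of 5108 probe sets with a log2 fold change under 1 were called (0.196%), 69 of 239 between 1 and 2 (28.9%), and all 22 of 2 and above.

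**Figure D5:**
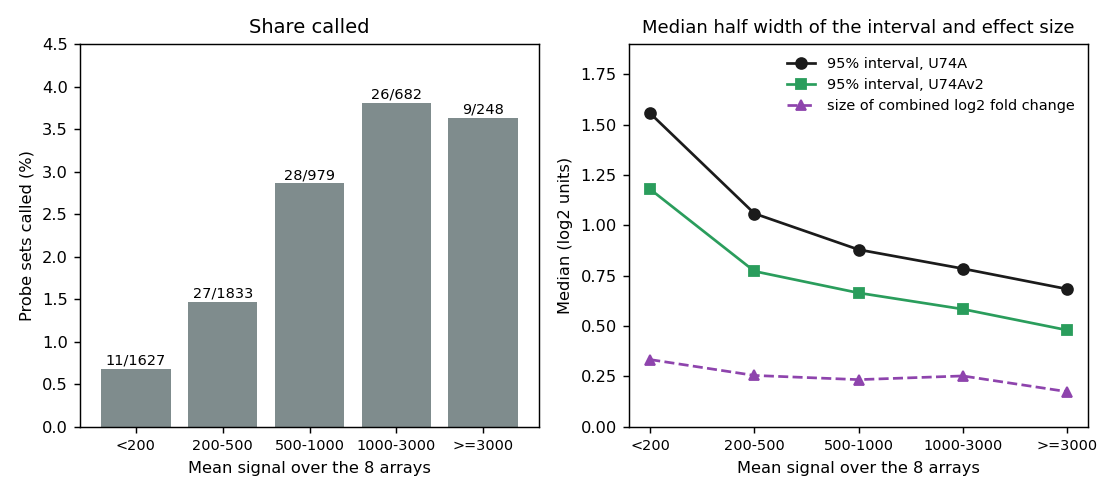
Left, percentage of tested probe sets called in the combined test by mean signal over the 8 arrays, with called and tested numbers above the bars. Right, median distance from the estimate to either end of the 95% confidence interval of the log2 fold change on U74A (circles) and U74Av2 (squares), and median size of the combined log2 fold change (triangles). The intervals narrow with signal and stay wider than the median effect in every class.

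On U74Av2, 1681 further probe sets were tested that could not enter the combined test, 1208 of them without a value on U74A. Of these, 1 was called, a probe set of the stress gene Gadd45b named here after its values were seen (3.50 ± 0.51, adjusted p = 0.0351), and 117 had an unadjusted p under 0.05. Among genes represented by their brightest probe set, none of the 10 with the smallest p passed over the whole table. Ahnak, a large scaffold protein at the cell membrane, read 142.1 and 101.4 in control and 1533.8 and 486.3 with PD169316 (2.85 ± 0.50, adjusted p = 0.0564). The groups did not overlap. The tetraspanin Cd63 (1.63 ± 0.31), the actin-binding transgelin 2, Tagln2 (1.47 ± 0.32), tropomyosin 1, Tpm1 (1.02 ± 0.25), and the filament gene peripherin, Prph (2.52 ± 0.68), had positive values. The ephrin Efnb2 (-1.18 ± 0.29) and the carbonyl reductase Cbr3 (-1.52 ± 0.44) had negative ones.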

How the data were processed

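Per the labels, the authors derived 1 intensity for each probe set in Microarray Suite 5.0, with global scaling to a trimmed mean of 300. Each array's trimmed mean lay at 300.2 or 300.3. Chip versions were scaled separately, so each test stayed within a version. Intensities under 32 were set to 32 before log2, so changes of dim genes are understated. Probe sets at 100 or more on at least 2 arrays entered limma 3.58.1 under R 4.3.3 (intensity trend, two-sided, Benjamini-Hochberg adjustment over all probe sets, threshold 0.05) on all S1 arrays of a version, SB203580 included. The z scores of both versions were summed and divided by their spread as independent scores. The effect is the mean of both log2 fold changes. Control probe sets were left out of the fits.

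Gene names came from the platform annotation: 10279 of 12588 on U74A and 10833 of 12422 on U74Av2 had 1 gene symbol. Of the called probe sets, 8 had none or several and stay unnamed. On U74A, 2611 were listed at 0 on all arrays.

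Same-numbered arrays shared a hybridization day, per the file headers, and their deviations from the group means correlated between control and PD169316 at 0.21 (U74A) and 0.17 (U74Av2) over 5369 probe sets, so the replicate number served as a block in an alternative that left out the single U74A SB203580 array. Named genes were the called genes past the 10 largest, called or top members of 56 gene lists, the brightest bounded genes and the leading U74Av2 genes. The result of 1 of these lists is not reported here. Members, lists and motifs were chosen with earlier results of these data known. The code was tested on simulated data with large changes and independent noise on each array. Those data held no shared hybridization day, so that test does not show how many of the calls are false.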

Additional observations from a re-analysis of the deposited data

How the results depend on the processing

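Quantile normalization, floors of 16 and 64, a minimum signal of 200, equal medians, and fits without SB203580 arrays kept the combined count within 1.5 times of 101. Of the 88 called genes, 83 stayed past the threshold under quantile normalization and 76 with equal medians, no call changed sign under any alternative, and the median of all genes moved from 0.03 to -0.02 and -0.05. Without the signal filter 1 probe set passed (1 higher, 0 lower), without the trend 31 (24 and 7), with the replicate block 199 (127 and 72), without control replicate 1 of both versions 30 (21 and 9), with correlated z scores 12 (12 and 0), and with 1 ratio per hybridization day 7 (7 and 0). That last test without a trend, chosen after seeing the data, gave 0 by limma, with 444 probe sets at an unadjusted p under 0.05. Leaving out single arrays gave 24 to 164 calls, 18 to 110 higher and 6 to 74 lower. The cause of these shifts was not tested. On U74A alone, the count of 1 became 2 by quantile normalization, 0 with equal medians, no filter or no trend, 6 at a minimum signal of 200, 9 with the block, 3 without control replicate 1 of both versions, and 0 to 10 without single arrays. On U74Av2 alone, 9 became 5 by quantile normalization, 3 without the filter, 4 with a floor of 64 or control and PD169316 arrays alone, 0 without the trend, 53 with the block, 3 without control replicate 1 of both versions, and 0 to 42 without single arrays. The 562 probe sets bounded within 2-fold became 1436 without the filter, 45 without the trend, 963 with the block, 127 without control replicate 1 of both versions, 0 at 1.5-fold, and 44 to 570 without single arrays. Signal over background limited dim genes.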

Other observations

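Some genes moved in opposite directions on the chip versions. With a log2 fold change of at least 1 on each version, 96 genes had the same sign (67 higher, 29 lower, 61 of them called) and 20 had opposite signs. The latter were dim, with a median mean signal of 111.7 against 332.3 and none above 256.2. Wbp4, a splicing-associated WW-domain gene, had signals of 43.7 and 18.4 in control and 211.0 and 121.1 with PD169316 on U74A, but 177.3 and 153.1 against 44.8 and 32.7 on U74Av2 (2.10 and -2.11 on the log2 scale). The groups were apart on each version in opposite directions. The same held for the MHC class II gene H2-Eb1 (1.75 and -2.20) and the Notch target Hey1 (-1.71 and 1.87), while the U74A groups of the cytokine receptor kinase gene Tyk2 (1.42 and -2.31) overlapped. Whether the probes of these sets are the same on both versions was not tested.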
